A study of Mus musculus with 5 samples.

Results

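S100 proteins are small calcium-binding proteins, and 10 of the 23284 gene symbols in these count tables form the set described here. These are S100g, S100a1, S100a4, S100a6, S100a8, S100a9, S100a10, S100a11, S100a13 and S100a16. They were chosen by their measured counts in the same libraries, with S100g singled out because it had no count in either control library. The difference between control and knockout libraries is therefore given for these genes as a description. Calls from fits over all genes are listed for them as well, but nothing is read from those calls.

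Acinar cells, which make and secrete the digestive enzymes of the pancreas, were taken from C57BL/6 mice aged 8 weeks and kept as primary cells. The 2 control libraries were from p48-Cre mice and the 3 knockout libraries from Arid1afl/fl;p48-Cre mice. All 5 libraries thus carry the Cre recombinase driven by p48 (Ptf1a), a gene of the pancreatic lineage, and the knockout mice also carry floxed alleles of Arid1a, which encodes a subunit of a SWI/SNF chromatin remodelling complex. The cells were allowed to recover for a short time in medium with serum after digestion of the tissue, before RNA was taken. The labels do not state whether each library came from its own animal, nor the sex of the mice.

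An S100 protein folds around a pair of EF hands, the helix-loop-helix motifs that bind calcium, and most members pair up and change shape on binding so that they can grip a target protein. S100g, also called calbindin-D9k, acts instead mainly as a calcium buffer and shuttle, and is best known from the absorptive cells of the intestine, where vitamin D raises it. In the pancreas, S100a6, S100a10, S100a11 and S100a4 are better known from ducts, stroma and tumours than from acinar cells, and S100a8 and S100a9 are stored in bulk by neutrophils.

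Setting knockout beside control libraries asks how loss of Arid1a changes acinar RNA, and the low depth of the controls limits the answer. Without Rn45s, the ribosomal RNA precursor, and Lars2, a mitochondrial transfer RNA synthetase gene, the controls held 67514 and 72006 counts and the knockouts 3155357 to 3568906. All CPM values (counts per 1e6 counted reads) are scaled to these totals. Taking 3 counts as the floor of detection, the floor over both controls together was 21.5 CPM and that over the 3 knockouts together was 0.298 CPM. Depth and the Rn45s share, 72.6% and 82.2% in the controls against at most 10.9% in the knockouts, divide the libraries exactly as genotype does, so they cannot be told apart from it. Arid1a itself had 0 and 3 counts in the controls, against 44, 121 and 42 in knockouts 1, 2 and 3, which does not check the genotype, because the count covers the whole gene and the labels do not say which exons are floxed. In bulk RNA, fewer cells of a type and less RNA per cell cannot be told apart. The acinar markers took 422000 and 496000 CPM in the controls, beside 421000 to 464000 CPM in the 3 knockouts; these enzyme genes define the labelled cell type.

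S100g lies on chromosome X, apart from the other 9 members, which lie on chromosome 3 within a run of 70 protein-coding genes. To show the stretches in front of the gene with the highest mean knockout level per length and of the gene that follows it, the sequences before the RefSeq starts of S100g (build GRCm38.p6, minus strand, chrX:162964600-162964849) and S100a6 (build GRCm38.p6, plus strand, chr3:90612644-90612881) are printed 5′ to 3′, with each match to AGGTCA, the half-site of many nuclear receptors, in capitals on either strand. The S100g stretch covers bases 250 to 1 before the start, and the S100a6 stretch bases 250 to 13.
S100g: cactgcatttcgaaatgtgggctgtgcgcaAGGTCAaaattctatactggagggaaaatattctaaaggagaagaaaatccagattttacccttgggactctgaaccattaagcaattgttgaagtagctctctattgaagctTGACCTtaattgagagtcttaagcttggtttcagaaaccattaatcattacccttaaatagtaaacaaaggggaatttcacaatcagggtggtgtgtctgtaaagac
S100a6: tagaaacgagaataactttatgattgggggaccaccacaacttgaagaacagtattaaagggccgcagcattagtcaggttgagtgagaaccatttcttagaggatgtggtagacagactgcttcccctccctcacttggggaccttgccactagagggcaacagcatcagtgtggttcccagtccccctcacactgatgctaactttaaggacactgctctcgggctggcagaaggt

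The S100g stretch held 2 matches to AGGTCA, the first base of one lying 220 bases before the start on the gene's own strand and of the other 107 bases before it on the opposite strand. No match was present in the printed S100a6 stretch. Over the full 300-base windows of the RefSeq promoter table, which also take in the 50 bases from the start on, AGGTCA occurred on either strand for 4 of the 9 members in that table (S100g, S100a4, S100a11 and S100a16) and in 16.3% of all 32851 windows. TATAAA, the core of the TATA box, occurred for S100g, S100a4, S100a8 and S100a9 and in 13.6% of all windows; in S100g it begins at the annotated start itself, past the printed stretch. S100a10 is not among the members in that table. A match is a run of letters and no evidence that a factor binds there.

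S100g, the calcium buffer of the set, had the highest mean level per transcript length of the S100 genes in the knockout libraries, and no count in the controls. It had 0 and 0 counts in the controls, against 975, 503 and 529 counts in knockouts 1, 2 and 3, that is 309, 141 and 158 CPM. Its knockout mean was 203 ± 92.5 CPM (SD, n = 3), which is at least 9.43-fold higher than the floor of 3 counts over both controls. Every knockout library lay above both controls, knockout 1 was the highest, and knockouts 2 and 3 were close to each other. At the pooled knockout level of 199 CPM the controls would have held 27.8 counts of S100g. The exact 95% interval of the pooled ratio, for counting error alone, had a lower limit of 7.53 and no upper limit. Of the 217 genes with a pooled knockout level between 100 and 400 CPM, 26 had no count in either control, or 12.0%, so S100g shares this pattern with other genes of its level. The bound depends on the depth of the controls: it is 4.87-fold without control 1 and 4.56-fold without control 2.

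**Figure D1:**
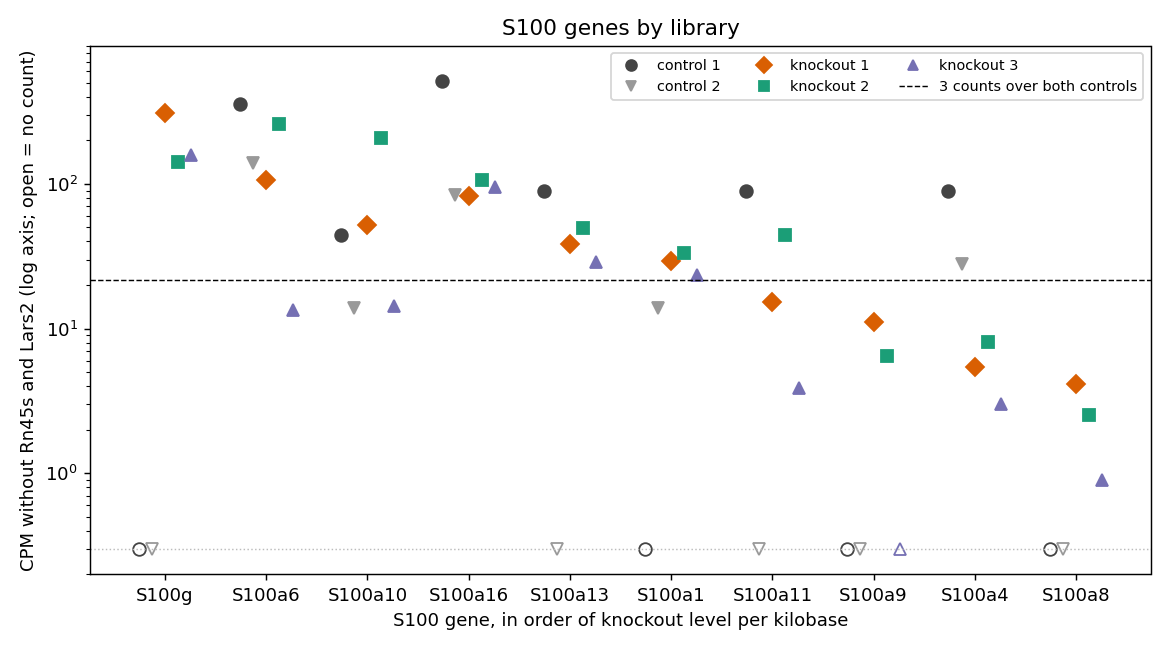
CPM without Rn45s and Lars2 (log axis) of each S100 gene in the 2 control and 3 knockout libraries, 1 point per library, with open points along the bottom for libraries without a count and a dashed line at 3 counts over both controls (21.5 CPM). S100g has no control count and 141 to 309 CPM in the knockouts, whereas S100a6 and S100a16 have points of both groups at similar heights.

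The share of S100g among all counts of the 10 members does not depend on how libraries are scaled. It was 47.3% in knockout 1 (exact 95% binomial interval 45.1 to 49.5), 16.4% in knockout 2 (15.1 to 17.7) and 46.3% in knockout 3 (43.4 to 49.3). In the controls it was 0 of 80 counts and 0 of 20 counts. With the floor of 3 counts these allow shares of up to 3.75% and 15%, and the exact interval has upper limits of 4.51% and 16.8%. Intervals and floors here cover counting error only, since reads without molecular identifiers are not independent molecules. Against S100a16, the member with the most control counts, S100g had 3.75, 1.31 and 1.66 counts per count in the knockouts. With 41 counts of S100a16 and none of S100g in the controls, the floor allows a ratio there of up to 0.0732. Against S100a6, with 34 control counts, the corresponding values were 2.89, 0.544 and 11.8 in the knockouts and up to 0.0882 in the controls. S100g therefore outnumbered S100a16 in each knockout library and S100a6 in knockouts 1 and 3, but not in knockout 2.

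Levels of different genes are comparable only per length, for which the CPM values were divided by the length of the principal transcripts in GENCODE, 480 bases for S100g. S100g then stood at 644, 294 and 329 CPM per kilobase in the knockouts. S100a6 followed with 179, 434 and 22.5, S100a10 with 89.5, 359 and 24.7, and S100a16 with 91.4, 119 and 106 CPM per kilobase. Next came S100a13 with a mean of 54.6 ± 14.6, S100a1 with 42.1 ± 7.24 and S100a11 with 41.3 ± 40.8 CPM per kilobase (SD, n = 3). S100a9, S100a4 and S100a8 closed the order at 11.4 ± 10.8, 11 ± 5.16 and 5.17 ± 3.32 CPM per kilobase. With these lengths the ranges of neighbours in this order overlapped except between S100a16 and S100a13, and in knockout 2 both S100a6 and S100a10 stood above S100g. The choice of length decides this. With all annotated exons of a gene joined, S100a6 (1367 bases), S100a10 (1212 bases) and S100a16 (1617 bases) come down to means of 92.5, 75.7 and 58.8 CPM per kilobase, while S100g stays at 480 bases. S100g (294 to 644 CPM per kilobase) then lay above S100a6 (at most 190) and S100a10 (at most 172) in every knockout library, and S100a16 (51 to 66.4) overlapped S100a13 (40.6 to 69.8). S100g had the highest mean with either length. In the controls, where S100g had no count, S100a6 with 595 and 233 and S100a16 with 575 and 92.4 CPM per kilobase were the highest members.

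**Figure D2:**
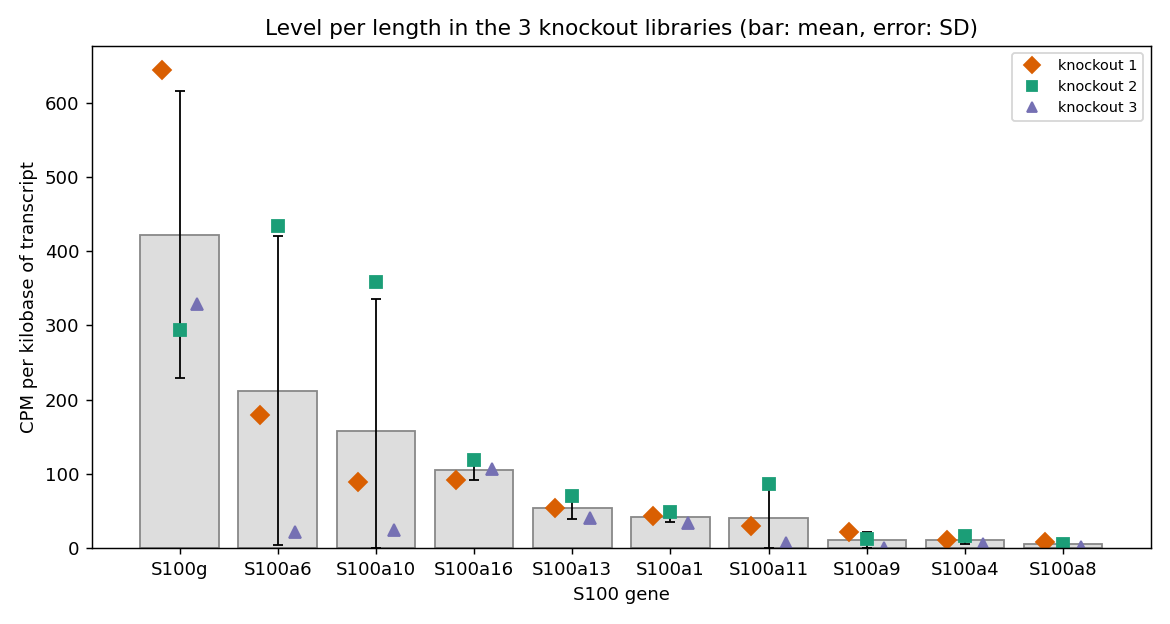
CPM per kilobase of transcript of each S100 gene in the 3 knockout libraries, with bars for the mean, error lines for the SD (stopped at 0) and 1 point per library. S100g has the highest mean at 422 CPM per kilobase, and S100a6 and S100a10 reach 434 and 359 in knockout 2 alone.

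S100a6 binds many partners, among them annexins and the calcyclin-binding protein Cacybp, and had the widest spread of the 9 members counted in every knockout library. It had 355 and 139 CPM in the controls (24 and 10 counts), beside 107, 259 and 13.5 CPM in the 3 knockouts. Knockout 2 lay between the controls and the other knockouts lay below both, so the groups overlapped. Within the knockout group the highest library was 19.3 times the lowest. The means were 247 ± 153 CPM (SD, n = 2) and 126 ± 124 CPM (SD, n = 3), a difference within that spread.

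S100a10, which forms a tight complex with annexin A2 at the plasma membrane, had 44.4 and 13.9 CPM in the controls, from 3 and 1 counts. The knockouts had 52, 209 and 14.3 CPM, so knockout 3 lay between the controls while knockout 2 lay far above them. The pooled ratio of knockout to control was 3.32, which counting error alone leaves between 1.29 and 12.2 (exact 95% interval), and the groups overlapped. Without knockout 2 the log2 ratio of the mean CPM values went from 1.65 to 0.19.

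S100a11, a partner of annexin A1, had 88.9 and 0 CPM in the controls, against 15.2, 44.3 and 3.89 CPM in knockouts 1, 2 and 3. The controls enclosed all 3 knockout values. Its principal transcript shares 41.1% of its 50-base words with pseudogenes or gene models (Gm12854, Gm29240 and Gm7665), so that reads may have been lost or split between copies, and its count is uncertain.

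S100a4, a regulator of non-muscle myosin known from motile and mesenchymal cells, was the only member with all knockout libraries below both controls on these totals. Genes outside the set, such as Anxa5, Myh9 and Stim2, lay below both controls in the same way. A lower knockout mean was found for 77.3% of the 6888 genes with counts in both groups. The share of all genes without overlap was not counted. On totals of all counts, control 2 (2 of 589798 counts) lay below knockout 2 (29 of 4049215 counts), so the separation of S100a4 depends on the scaling. S100a4 had 88.9 and 27.8 CPM in the controls, from 6 and 2 counts, and 5.39, 8.13 and 2.99 CPM in the knockouts. The pooled ratio was 0.097 (exact 95% interval 0.046 to 0.236). The ratio of the means was 0.0943, but 0.413 on totals of all counts and 0.387 with TMM factors applied, and its log2 went from -3.41 to -2.34 without control 1 and to -4.01 without control 2. Of its words 56.3% are shared with Gm42674, a gene model that overlaps it and is not among the counted symbols. Reads from the shared stretch could belong to either, so this count is uncertain too. The fibroblast and stellate markers summed to 14.8 and 222 CPM in the controls, beside 61.8, 136 and 24.2 CPM in the 3 knockouts, with 6 of 9 markers at 0 in both controls; Col1a1 had 0 and 12 counts there. Their part in the level of S100a4 was not tested.

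S100a16, a widely expressed member, was the steadiest over the knockouts, at 82.4, 107 and 95.4 CPM. The controls differed more from each other, with 518 and 83.3 CPM from 35 and 6 counts. Control 2 thus lay within the knockout range and control 1 far above it. The log2 ratio of the means was -1.66, and 0.19 without control 1, so its sign rests on that library.

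S100a13, which takes part in the release of proteins that lack a signal peptide, had 88.9 and 0 CPM in the controls, against 38.3, 49.9 and 29 CPM in knockouts 1, 2 and 3, all between the controls. S100a1, a modulator of calcium-cycling proteins best known from heart muscle, had 0 and 1 counts in the controls, beside 92, 118 and 78 in the 3 knockouts. That is 29.2, 33.1 and 23.3 CPM against 0 and 13.9 CPM, without overlap, for which the share over all genes was not counted. With 1 control count in all, its pooled ratio of 3.99 has an exact 95% interval from 0.711 to 158 on these totals, which includes 1. The ratio of the means was 4.11, and 30.4 on totals of all counts and 19.8 with TMM factors applied. The 2 genes lie next to each other on opposite strands, but their annotated exons do not overlap.

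S100a8 and S100a9 form calprotectin, a zinc- and calcium-binding complex of neutrophils. S100a8 had no control count and 13, 9 and 3 counts in the knockouts, and S100a9 had none in the controls, against 35, 23 and 0 in knockouts 1, 2 and 3. Both were highest in knockout 1, and all values lay under the control floor of 21.5 CPM (at most 4.12 CPM for S100a8 and 11.1 CPM for S100a9), so no fold is given. The other neutrophil markers were in sum also highest in knockout 1 and lowest in knockout 3, a sum carried by Ltf and Il1r2 (60, 36 and 1 counts); 7 of the 12 markers were highest in knockout 2. Their sum was 46.9, 38.9 and 2.69 CPM in the knockouts, and 29.6 and 55.6 CPM in the controls, from 2 and 4 counts. Ltf, the iron-binding lactoferrin, had 71, 75 and 0 counts, and Ngp, a granule protein, had 7, 9 and 0 counts in the knockouts. In knockout 3, Ngp, Ltf, Mpo and Elane were at 0, while the granule gene Camp had 5 counts, Cd177 had 3 and Il1r2 had 1. The part of neutrophils in the 2 genes was not tested.

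Within the knockout group the members fell into differing patterns. Knockout 2 held the highest value of 7 of the 10 members, against 88.6% of the 11221 genes with at least 10 knockout counts, so a peak there is what most genes show. S100g, S100a8 and S100a9 had their highest value in knockout 1, as did 5.61% of these genes. The annexin Anxa2, the partner of S100a10, had 78.6, 258 and 20 CPM in the knockouts, and the duct keratin Krt19 had 113, 491 and 33.5 CPM. S100a6, S100a10 and S100a11 spread over 19.3, 14.5 and 11.4 times between the highest and lowest knockout, Anxa2 over 12.9 and Krt19 over 14.7 times, each with knockout 2 highest and knockout 3 lowest. The 10 duct markers summed to 550, 1880 and 296 CPM in the knockouts and 844 and 722 CPM in the controls, each of the 10 being highest in knockout 2 among the knockouts. Their spreads differed: Spp1, Muc1 and Cftr were lowest in knockout 1 and spread over 3.66, 1.74 and 2.43 times. The other duct markers were lowest in knockout 3, with Cldn4 spreading over 54.9 times. By edgeR 0 of 9 tested duct markers were called, beside 0.0484% higher and 0.291% lower over all tested genes. An unadjusted p under 0.05 was found for 6, beside 34.4% over all tested genes. DESeq2 called 1 higher, beside 11% of all genes it gave an adjusted p. The part of the duct markers in the S100 values was not tested. S100g ran the other way, with its lowest value, 141 CPM, in knockout 2.

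**Figure D3:**
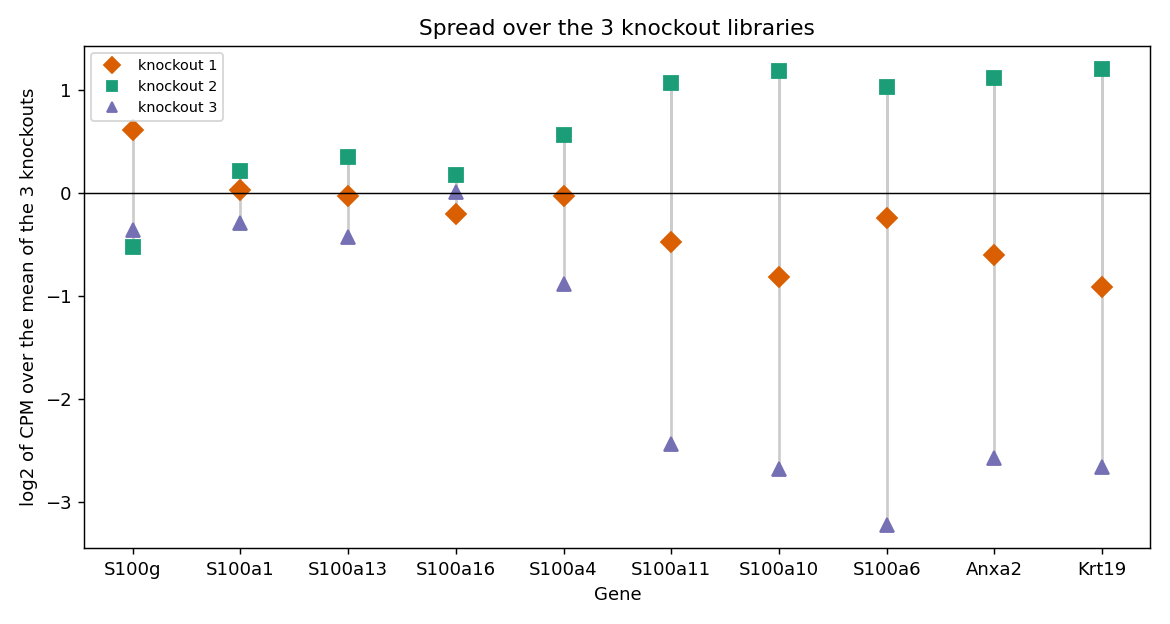
log2 of the CPM in each knockout library over the mean of the 3, for S100g, 7 other S100 genes, Anxa2 and Krt19, 1 point per library. S100a11, S100a10, S100a6, Anxa2 and Krt19 are high in knockout 2 and low in knockout 3, whereas S100g is highest in knockout 1.

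The direction of most members depended on the scaling. On totals without Rn45s and Lars2, 5 of the 7 members with counts in both groups had a lower mean in the knockouts, near the 77.3% of all 6888 such genes. On totals of all counts, or with TMM factors (trimmed mean of M-values) applied, only S100a4 of these 7 was lower. S100a6, S100a11, S100a13 and S100a16 changed sign between these scalings, S100a1 and S100a10 stayed above 0, and S100a4 stayed below it. For S100g the lowest fold that the floor allows was 54 on totals of all counts, 47.5 with TMM factors, and 9.21 with the acinar markers also taken out of the totals.

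**Figure D4:**
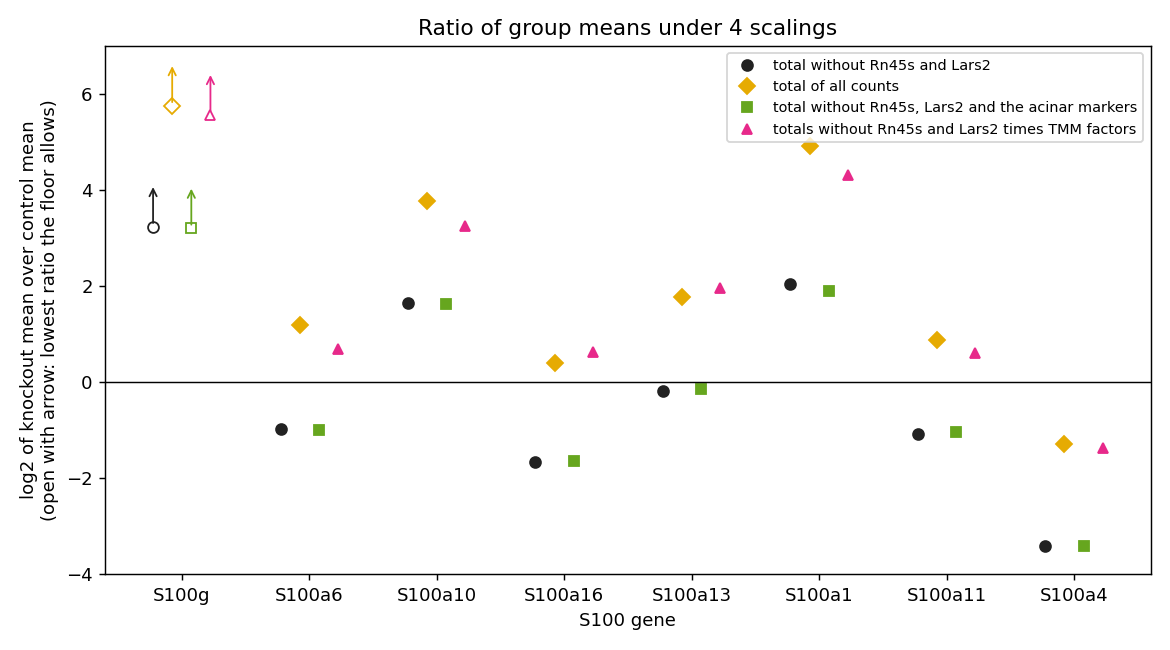
log2 of the knockout mean over the control mean under 4 scalings for S100g and the 7 S100 genes with control counts, with open points and arrows for S100g, where only the lowest ratio allowed by the floor can be given. S100a6, S100a16, S100a13 and S100a11 cross 0 between scalings, and S100a1 rests on 1 control count.

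In the edgeR quasi-likelihood fit over all genes, 9 of the 10 members passed the filter on low counts, S100a8 being left out, and S100g and S100a9 passed through the knockouts alone. None of the 9 was called at an adjusted p under 0.05 in either direction, against 0.0484% of all 8261 tested genes called higher and 0.291% called lower. At an unadjusted p under 0.05 there were 3 of the 9, beside 34.4% of all tested genes (2843 of 8261). DESeq2 called S100g higher, as it did 11% of the 5058 genes it gave an adjusted p, with 5.93% called lower, and limma-voom called 0. S100g was called in 8 of 14 alternative fits. Since the members were chosen on this contrast, nothing is read from these counts. The median log2 ratio of mean CPM over the 9 members, taking S100g and S100a9 at the control floor, was -0.97, beside -1.15 over all tested genes. On the TMM scale of the edgeR fit the median log2 fold change had the other sign, 1.74 over the 9 members and 2.05 over all tested genes. Fitted values of genes without a control count depend on the prior count, so this median is no bound.

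The other S100 genes were nearly silent. Of 13 further family members and fused-type S100 genes in the tables, all had no control count and 6 had no count at all: S100a5, S100a7a, Flg2, Hrnr, Tchhl1 and Crnn. S100a14, an epithelial member, had 18, 36 and 0 counts in the knockouts, or at most 10.1 CPM. S100b, known from glia, had 2, 8 and 1 counts, and S100a3, S100z, S100pbp (a binding protein of an S100 member) and Rptn had at most 2 counts in any library. Tchh, a hair follicle protein, had 3, 7 and 0. Each of these values was under the control floor, so a difference was not detectable, and S100a14, the 1 gene of the 13 that was tested, was not called.

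Of the partners and receptors of S100 proteins, edgeR called 0 of 16 tested, beside 0.0484% higher and 0.291% lower over all tested genes. At an unadjusted p under 0.05 there were 3 of 16 (34.4% over all tested genes). DESeq2 called 2 higher, beside 11% of all genes it gave an adjusted p. Anxa2 had 281 and 111 CPM in the controls and an adjusted p of 0.611 in edgeR. Its fitted log2 fold change on the TMM scale was 0.639, although its mean CPM was lower in the knockouts. Anxa5, another calcium-dependent membrane binder, had 118 and 69.4 CPM in the controls, beside 21.2, 62.2 and 9.87 CPM over the 3 knockouts (adjusted p = 0.943, edgeR). Myh9, the myosin heavy chain that S100a4 binds, had 148 and 181 CPM against 44.4, 98.9 and 9.87 CPM, and Ahnak, a scaffold bound by the S100a10 and annexin A2 complex, had 133 and 361 CPM against 40.9, 177 and 14.1 CPM (adjusted p = 0.833 and 0.77, edgeR). Bsg, a surface receptor for S100a9, had 207 and 55.6 CPM against 95.1, 229 and 134 CPM (adjusted p = 0.15, edgeR). Ager, the receptor RAGE, had no control count and 4, 4 and 0 counts. The median log2 ratio of mean CPM over the list was -0.94, beside the -1.15 over all tested genes, and the median fitted log2 fold change was 1.33, beside 2.05.

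Other EF-hand proteins gave 0 of 22 called by edgeR, beside 0.0484% higher and 0.291% lower over all tested genes. At an unadjusted p under 0.05 there were 9, beside the 34.4% over all tested genes. DESeq2 called 1 higher, beside 11% of all genes it gave an adjusted p. The median log2 CPM ratio was -0.49 and the median fitted log2 fold change 2.59, beside -1.15 and 2.05 over all tested genes. Capns1, the small calpain subunit, had 133 and 181 CPM in the controls against 71.9, 188 and 57.7 CPM over the knockouts (adjusted p = 0.341, edgeR). The fitted log2 fold change of Capns1 on the TMM scale was 1.111, although its mean CPM was lower in the knockouts. Nucb1 and Sdf4, EF-hand proteins of the Golgi, and Calu, of the endoplasmic reticulum, had adjusted p-values of 0.481, 0.109 and 0.792. Calb1, the larger calbindin, had 2 counts in all, both in knockout 2, and Pvalb, parvalbumin, had none. S100g was thus the one vitamin D-dependent calbindin with more than 2 counts in these libraries.

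Genes of vitamin D action and calcium transport, which act around S100g in the intestine, were sparse. Of 6 tested, edgeR called 0, beside 0.0484% higher and 0.291% lower over all tested genes. An unadjusted p under 0.05 was found for 1 (34.4% over all tested genes). DESeq2 called 1 higher, beside 11% of all genes it gave an adjusted p. The median log2 CPM ratio was -1.24 and the median fitted log2 fold change 4.2, beside -1.15 and 2.05 over all tested genes. Of the 6 tested genes 3 had no control count, as did 2902 of all 8261. Their fitted values depend on the prior count, so this fitted median is no measure of size. Vdr, the vitamin D receptor, had no control count and 2, 11 and 0 counts in the knockouts. The part of this receptor in the S100g level was not tested. Cyp24a1, the vitamin D-degrading enzyme induced through that receptor, Cyp27b1, which makes the active hormone, and the channel gene Trpv5 had no count in any library. Trpv6, the calcium entry channel of absorptive cells, had 3 and 0 counts in the controls, beside 18, 30 and 39 over the 3 knockouts (adjusted p = 0.65, edgeR). Rxrb, a partner receptor of Vdr, had no control count and 33.3, 56.3 and 19.1 CPM in the knockout libraries (adjusted p = 0.0632, edgeR), and Rxra, its relative, had 0 and 97.2 CPM against 21.6, 36.4 and 9.87 CPM (adjusted p = 0.709, edgeR). On the TMM scale of the fit, Trpv6 and Rxra had log2 fold changes of 0.812 and 0.524. Their mean CPM values, in contrast, were lower in the knockouts. Calcr and Atp2b2 were sparse as well, with 7 and 3 control counts and 1 and 2 knockout counts. Scaled to depth, both had a lower mean in the knockouts. Calcr had 104 and 0 CPM in the controls, beside 0, 0.28 and 0 CPM in the 3 knockouts, so the groups overlapped. Atp2b2 had 14.8 and 27.8 CPM in the controls, against 0.317, 0.28 and 0 CPM in the knockouts, without overlap. For such a separation the share over all genes was not counted. On this scaling 77.3% of the 6888 genes with counts in both groups had a lower knockout mean. The pooled ratios of knockout to control were 0.00198 for Calcr and 0.00924 for Atp2b2. Their exact intervals, for counting error alone, were 4.39e-05 to 0.0154 for Calcr and 0.000772 to 0.0806 for Atp2b2. Markers of enterocytes, the intestinal cells known for S100g, were at or near 0: Fabp1, Fabp2, Apoa4, Alpi, Cdx1 and Cdx2 had no count in any library, and the 13 markers in the table summed to 7.29, 31.9 and 14.6 CPM in the knockouts and, from 8 and 2 counts, to 118 and 27.8 CPM in the controls. The knockout sums came mostly from Krt20 (16, 84 and 1 counts) and Apoa1 (1, 3 and 41 counts), and the control counts from Apob and Vil1. The part of such cells in the S100g level was not tested.

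Calcium signalling genes of the acinar cell gave 0 of 15 called by edgeR, beside 0.0484% higher and 0.291% lower over all tested genes. At an unadjusted p under 0.05 there were 3 of 15, beside the 34.4% over all tested genes. DESeq2 called 1 higher and 1 lower, beside 11% and 5.93% of all genes it gave an adjusted p. The median log2 CPM ratio was -2.02 and the median fitted log2 fold change 0.25, beside -1.15 and 2.05 over all tested genes. Cckar, the cholecystokinin receptor, had 29.6 and 0 CPM in the controls, against 122, 216 and 34.1 CPM in knockouts 1, 2 and 3 (adjusted p = 0.0636, edgeR). Stim2, a calcium sensor of the endoplasmic reticulum, had 88.9 and 97.2 CPM against 6.34, 13.7 and 0.598 CPM (adjusted p = 0.0924, edgeR). Itpr3, a calcium release channel, had 29.6 and 222 CPM against 15.8, 38.4 and 6.58 CPM, and Atp2a2, a calcium pump, 133 and 27.8 CPM against 25.7, 59.7 and 11.1 CPM (adjusted p = 0.322 and 0.84, edgeR). Tmem66, a regulator of store-operated calcium entry, had 44.4 and 222 CPM against 88.1, 111 and 49.9 CPM (adjusted p = 0.373, edgeR). Atp2a2 and Tmem66 had fitted log2 fold changes of 0.251 and 1.112 on the TMM scale, although their mean CPM was lower in the knockouts.

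Among the 4857 genes without a control count and with counts in every knockout library, the 5 nearest to S100g in level over these 3 libraries were Rps21, 1810009J06Rik, Lrg1, Reg3a and Reg3d. Nearness was the largest absolute log2 ratio of CPM, not divided by length, to S100g over the 3 libraries, which was 0.79 for Rps21, 1.05 for 1810009J06Rik, 1.28 for Lrg1, 1.34 for Reg3a and 1.38 for Reg3d. Rps21, a ribosomal protein gene, had 283, 244 and 253 CPM. The trypsinogen-like 1810009J06Rik had 576, 293 and 294 CPM, and Lrg1, a secreted acute-phase glycoprotein, had 365, 180 and 65.2 CPM. Reg3a and Reg3d, lectins of the Reg family, had 599, 122 and 62.5 CPM and 800, 367 and 381 CPM. The ratio of the highest to the lowest knockout was 2.19 for S100g, against 1.16 for Rps21, 1.97 for 1810009J06Rik, 2.18 for Reg3d, 5.6 for Lrg1 and 9.59 for Reg3a.

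S100g lies within the span of Ctps2, a CTP synthase gene, without sharing an exon with it in GENCODE. Ctps2 had no control count and 39, 79 and 7 counts in the knockouts. The part of reads from Ctps2 in the S100g count was not tested. None of the 50-base words of S100g was shared with another gene's transcripts. The X-linked Xist, which female cells express, had 272, 1 and 204 counts in the knockouts and none in the controls, and the 4 Y-linked genes looked at had 1 count in all, of Kdm5d in knockout 3. The S100g level was 309 CPM in knockout 1, with 272 counts of Xist. It was 158 CPM in knockout 3, with 204 counts, and 141 CPM in knockout 2, with 1 count. A relation between Xist and S100g was not tested.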

How the data were processed

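The deposited files hold raw counts per gene symbol, which the authors did not normalize, judging from whole numbers with a different total in each library. Per the labels' protocols, the libraries were made with a poly(A) kit, TruSeq v2, which does not mark strand. Build mm9 and the tools HTSeq 0.9.1, TopHat2 2.1.1, Cuffdiff 2.2.1.5 and Cuffnorm 2.2.1.2 are listed, without roles, per the submitters' processing notes. The annotation and the handling of multiply mapped reads were not given in the sources used here.

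From the counts, CPM values were computed on totals without Rn45s and Lars2. edgeR 4.0.16 in R 4.3.3 fitted group as the only term over all 5 libraries (TMM factors from all genes, filterByExpr, robust glmQLFit, two-sided glmQLFTest), with Benjamini-Hochberg adjustment over all 8261 tested genes and calls at 0.05; it was tested on simulated data. As no label ties a library to its own animal, the spread behind each p may be technical only. Alternatives were RLE and upper quartile factors, 2 ways of leaving out Rn45s and Lars2, 2 other filters, DESeq2 1.42.0, limma-voom (limma 3.58.1), a replicate block and each library left out; for the members, 3 other scalings and each library left out. Folds against a group at 0 use 3 counts over that group. Each edgeR p refers to the fold change on the TMM scale, not to the CPM values printed beside it.

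The members and lists were chosen with earlier results of these data known. The text names every member, further S100 genes with a count, Arid1a, the 5 most abundant genes of each pathway list, and the 5 genes nearest to S100g. One of the pathway genes under this rule is not reported here. Other genes, including some list and marker genes (Vdr, Calb1, Ager, Cyp24a1, Ngp, Ctps2 and others), were named after their values were seen. Results of marker lists not described in the text are in the closing section. Transcript lengths are medians over principal transcripts in GENCODE, and promoter sequences are from RefSeq, both of build GRCm38 and matched by symbol, whereas the counts were made on mm9; no coordinates were converted.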

Additional observations from a re-analysis of the deposited data

How the results depend on the processing

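The depth of the controls limits every value: 1 count there is 7.17 CPM over both. For a member without a control count and under 21.5 CPM in the knockouts, a difference was therefore not detectable. Over all genes, the edgeR counts of 4 called higher and 24 called lower became 6 and 51 with RLE factors, 7 and 283 with upper quartile factors, 16 and 134 on totals without Rn45s and Lars2, 147 and 71 with TMM factors from the other genes, 1076 and 710 with no filter, 336 and 131 with at least 1 CPM in 2 libraries, 558 and 300 by DESeq2, and 0 and 0 by limma-voom. Leaving out 1 library gave 0 (without control 1) to 310 (without knockout 3) higher and 5 (without knockout 1) to 163 (without knockout 3) lower; the lone control is then assumed to vary like the knockouts. Of the pathway genes, 2 were called higher with TMM factors from the other genes, 6 with no filter, 5 with 1 CPM in 2 libraries, 5 by DESeq2 and 0 to 4 with 1 library left out; called lower were 1 with upper quartile factors, 1 with no filter, 1 by DESeq2 and 0 to 1 with 1 library left out. Of the S100 members, 1 was called higher on totals without Rn45s and Lars2, 1 with TMM factors from the other genes, 3 with no filter (S100g, S100a1 and S100a10), 1 with 1 CPM in 2 libraries, 1 by DESeq2, and 0 to 1 with 1 library left out; 0 were called lower in any of these. The cause of these shifts was not tested. Deviations from the group mean correlated at -0.03 between the libraries numbered 1 and at 0.03 between those numbered 2. These values cannot tell whether the numbers pair samples. With 2 controls, their correlations with any knockout are equal in size and opposite in sign by construction. With a replicate block over the numbers, 23 genes were called higher and 2 lower, and of the S100 members 1 was higher. The lowest fold allowed for S100g was 54 on totals of all counts, 47.5 with TMM factors, and 4.56 to 10.9 with 1 library left out. Of the 7 members with counts in both groups, 1 had a lower knockout mean on totals of all counts, 1 with TMM factors, and 2 (without control 1, where S100a11 and S100a13 have no control count and so no ratio) to 5 with 1 library left out. The log2 ratios that changed sign were, on totals of all counts and with TMM factors, 1.18 and 0.7 for S100a6, 0.87 and 0.6 for S100a11, 1.78 and 1.97 for S100a13, and 0.4 and 0.63 for S100a16; with 1 library left out, S100a16 ranged from -2.45 to 0.19. Joined exon lengths, an alternative chosen after seeing the data, moved the mean per kilobase of S100a16 from 105 to 58.8.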

Other observations

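Markers of other cell types that the preparation could hold were present at varying levels, and in most lists knockout 2 was the highest of the knockouts. The 8 islet markers summed to 104 and 680 CPM in the controls, beside 176, 927 and 213 CPM in the 3 knockouts. Macrophage markers summed to 59.2 and 208 CPM against 67.2, 262 and 21.5 CPM, and lymphocyte markers to 311 and 27.8 CPM against 15.2, 66.7 and 22.4 CPM. Endothelial markers had no control count and 131, 165 and 27.8 CPM in the knockouts, led by Plvap and Pecam1. Mesothelial markers summed to 88.9 and 27.8 CPM against 7.92, 78.2 and 8.97 CPM, nearly all from Msln, with Lrrn4, Wt1 and Upk1b at 0 in every library. Adipocyte markers summed to 44.4 and 0 CPM against 122, 89.9 and 8.67 CPM, and were, like S100g, S100a8 and S100a9, highest in knockout 1. Schwann cell markers summed to 14.8 and 0 CPM against 10.1, 40.9 and 6.28 CPM. None of the 6 red cell markers had a count in any library. By edgeR 0 members of any of these lists were called at an adjusted p under 0.05, beside 0.0484% higher and 0.291% lower over all tested genes. At an unadjusted p under 0.05, which 34.4% of all tested genes had, there were 4 of 8 tested islet markers, 3 of 5 endothelial, 1 of 4 macrophage, 1 of 5 lymphocyte, 1 of 2 adipocyte, 1 of 2 Schwann cell and 0 of 1 mesothelial markers. The lists named in the report gave 6 of 14 acinar, 6 of 9 duct, 3 of 7 fibroblast and stellate, 0 of 2 neutrophil and 0 of 2 enterocyte markers. DESeq2 called 3 acinar, 2 islet, 2 endothelial, 1 duct, 1 fibroblast and 1 adipocyte markers, all higher. It called 11% of all genes it gave an adjusted p higher. The part of these cells in the S100 values was not tested.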
